A study of Bos taurus with 40 samples.

Results

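The pituitary gland of Korean cattle was set against the 3 other tissues taken from the same animals. Its 10 samples were all those whose labels name the pituitary gland, of 40 samples in the series, and each was matched by ear tag to 1 liver, 1 abdominal fat and 1 longissimus dorsi muscle sample (30 samples). The donors were 5 cows and 5 bulls slaughtered at an age of over 22 months, and numbers 1 to 5 within each sex name the animals. RNA was sequenced once per animal and tissue, so n is 10 animals per tissue. The labels do not name the lobes of the gland or the site of each dissection. The study asked which genes differ between the sexes, while the comparison given here asks how the gland differs from the other tissues.

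The pituitary gland sits under the brain and has an anterior lobe of hormone-secreting epithelial cells and a posterior lobe of nerve endings and glia. Separate anterior cell types make growth hormone, prolactin, adrenocorticotropic hormone from its precursor pro-opiomelanocortin, thyrotropin and the gonadotropins. Hypothalamic releasing and inhibiting factors reach these cells by the portal blood and act through receptors on their surface. The cells are electrically active, and calcium entry sets off the release of stored hormone granules.

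The pituitary samples held 9196932 to 19165864 reads on genes, with a median of 10161721.5, and 11854 to 12186 genes had a read in them. Reads outside annotated genes made up 33.2 to 52.1% of the uniquely aligned reads of a pituitary sample. Correlations of log2(CPM + 1) between pituitary samples ranged from 0.944 to 0.992 over 45 pairs, against 0.629 to 0.677 with liver, 0.631 to 0.806 with fat and 0.671 to 0.751 with muscle. A pair of the other libraries did not behave as labelled. The liver sample labelled bull 3 had 0 reads on DDX3Y, USP9Y and ZFY of the Y chromosome, 8694 reads on XIST, and its closest sample was the liver of cow 4 (r = 0.993). The fat sample labelled bull 5 had 23 reads on USP9Y and 18 reads on XIST, and the lowest mean correlation with its own tissue (0.904). All 10 pituitary samples carried the sex-linked reads of their labels. The counts of genes were recomputed without these liver and fat libraries.

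The label of the gland was checked first with GH1, PRL and POMC, the genes of growth hormone, prolactin and pro-opiomelanocortin. The level of a gene is given as TMM CPM, the counts-per-million value scaled by edgeR's TMM factors. GH1 ranged from 6616 to 36809.7 TMM CPM in the 10 pituitary samples (median 20102), against at most 36.2 in any of the 30 other samples. PRL ranged from 63894 to 219240.0 (median 171746), against at most 311. POMC ranged from 5263 to 58536 (median 9455), against at most 58.4 elsewhere. The lowest pituitary sample was thus above the highest sample of any other tissue for each of these genes, and the label held.

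The remaining hormone genes encode the shared glycoprotein subunit (CGA) and the specific subunits of thyrotropin (TSHB), luteinizing hormone (LHB) and follicle-stimulating hormone (FSHB). CGA ranged from 1339 to 14537 TMM CPM in pituitary (median 2947) and reached at most 15.9 elsewhere. TSHB ranged from 150.2 to 826 (median 591), against at most 0.983. LHB ranged from 30.7 to 304 (median 119), against at most 0.793. The widest relative range of the 7 belonged to FSHB, from 56.9 to 1763 (median 756), against at most 1.97 elsewhere. The groups did not overlap for any of the 7 genes.

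Each gene was tested with edgeR's quasi-likelihood F test on the raw counts, with the animal as a block and Benjamini-Hochberg adjustment over 13148 genes. A gene was called above (or below) all 3 tissues if its adjusted p was under 0.05 and its log2 fold change at least 2 in size against each of liver, fat and muscle. All 7 hormone genes were above all 3 tissues, whereas 7.76% of all genes tested were. As GH1, PRL and POMC had first served to check the label, this comparison is a description and not a test. The median log2 difference of the 7 was 10.90 against liver, 11.17 against fat and 10.63 against muscle, beside 0.14, 0.05 and 0.06 over all genes. For PRL the log2 difference was 11.16 ± 0.47 (SE) against liver, 11.33 ± 0.47 against fat and 10.92 ± 0.47 against muscle, with an edgeR adjusted p of 2.0e-15 or less. The smallest difference of the 7 genes was that of POMC against fat, at 9.77 ± 0.31 (edgeR adjusted p = 2.4e-19).

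The 7 hormone genes together took 14.1% of all reads on genes in the pituitary of cow 1 (exact 95% Clopper-Pearson interval 14.098 to 14.143%) and 35.4% in that of bull 3 (35.369 to 35.427%), with a median of 27.8%. Such intervals cover counting error only. Low shares went with many uniquely aligned reads outside annotated genes. Cow 1 (14.1%), cow 3 (17.0%), cow 2 (19.5%) and bull 5 (22.4%) had 49.4, 52.1, 46.7 and 46.9% outside genes. The other pituitary samples had hormone shares of 25.9 to 35.4% and 33.2 to 41.2% outside genes. The cause was not tested. PRL alone took 10.5 to 27.6% (median 23.1%). GH1 took 1.13 to 4.63% (median 2.77%) and POMC 0.712 to 9.13% (median 1.41%). CGA took 0.201 to 1.72%, and TSHB, LHB and FSHB each at most 0.220%. In the 30 other samples the 7 genes together took 0.00135 to 0.0313% of reads. With all uniquely aligned reads as the denominator the pituitary median was 16.5%.

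**Figure D1:**
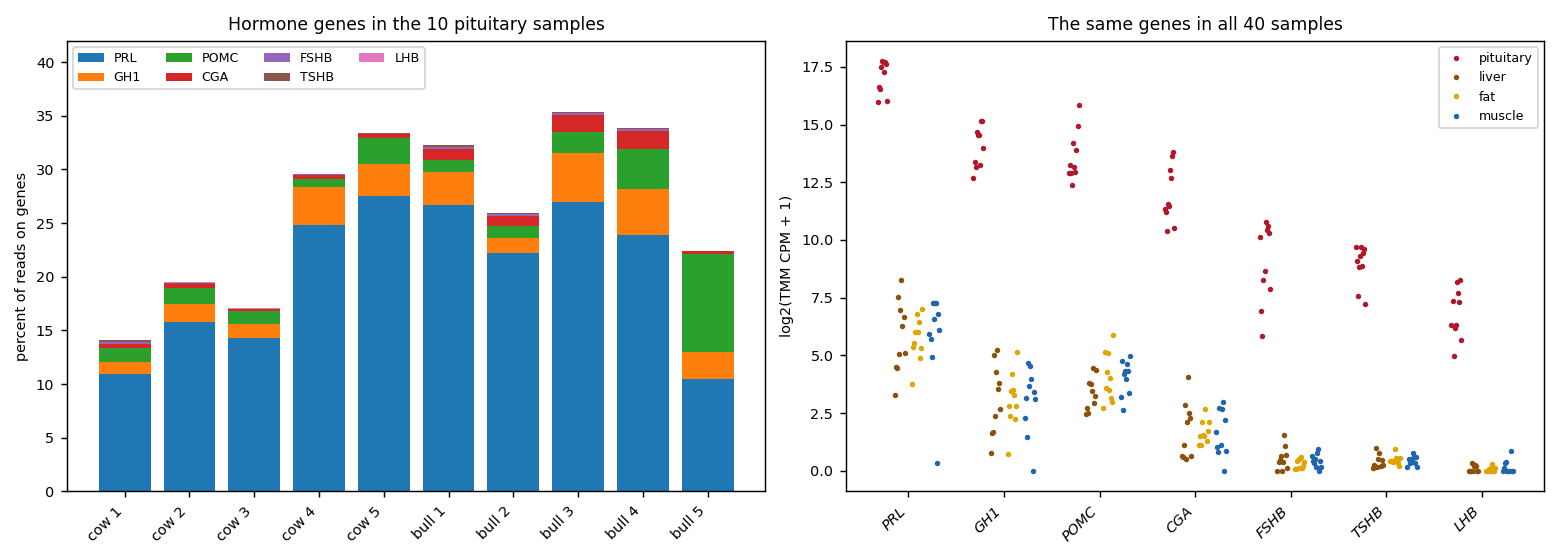
Left, the stacked bars give the percent of reads on genes taken by each of the 7 hormone genes in the 10 pituitary samples. Right, each point is 1 of the 40 samples, with log2(TMM CPM + 1) on the vertical axis and the tissue as the colour. PRL makes up most of each bar except that of bull 5, where POMC takes 9.13%, and every pituitary point lies above all points of the other tissues.

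The size of these differences rests on the low counts of the pituitary genes elsewhere. PRL had reads in all 30 other samples, and in 11 of them all 7 hormone genes had reads. The share of reads on PRL in those samples (CPM without TMM scaling), divided by that in the pituitary of the same animal, was 0.717 to 1187 ppm (parts-per-million) with a median of 323 ppm. With TMM scaling the ratio was 1.23 to 1945 ppm with a median of 490.2 ppm. Without TMM scaling the median ratio was 288 ppm for GH1, 370.0 ppm for SCG2 and 324 ppm for CHGA. These genes thus stood at like ratios although their pituitary levels differed. The lowest PRL count was 1 read, in the muscle of bull 3, where GH1, SCG2 and CHGA had 0 reads. The highest PRL ratio was that of fat from bull 5 without TMM scaling and that of liver from bull 2 with it, and the highest summed hormone share, 0.0313%, was also that of liver from bull 2. POMC stood higher, at a median of 617 ppm. Whether such reads came from the tissue itself or from another library was not tested, so log2 differences near 11 give what these libraries measured.

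**Figure D2:**
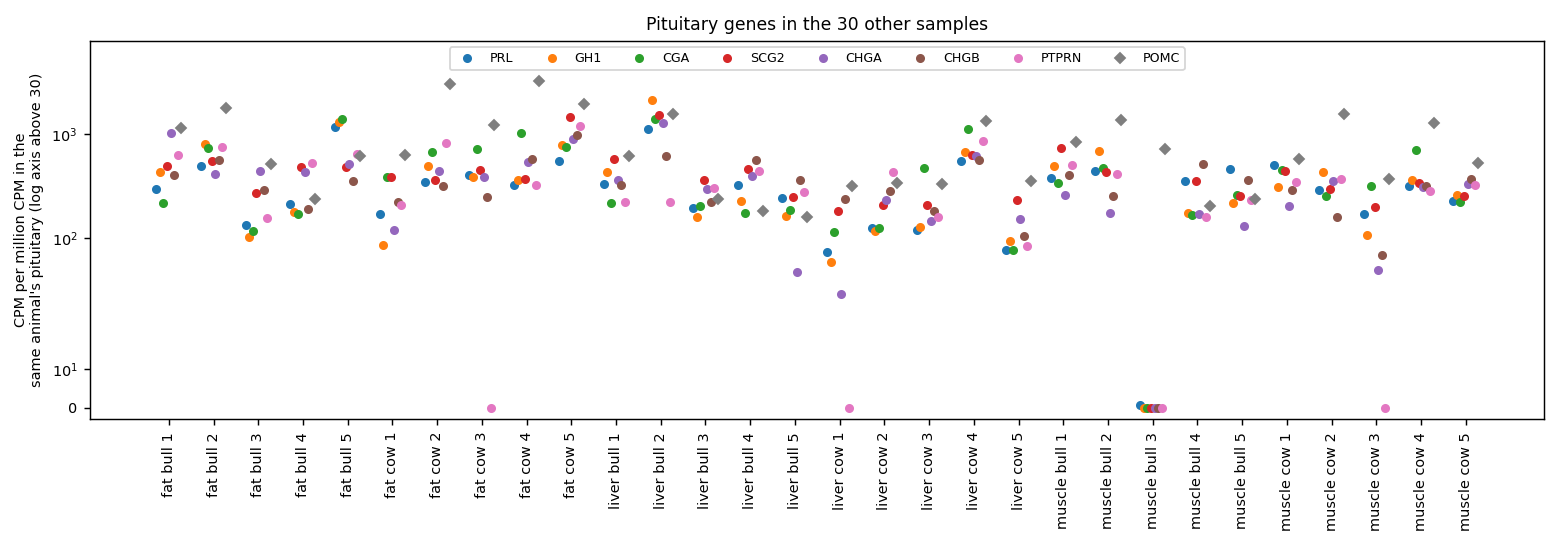
The vertical axis gives, in ppm, the ratio of the CPM (without TMM scaling) of 8 pituitary genes in each of the 30 other samples to that in the pituitary of the same animal, with a log axis above 30. Most points lie between 100 and 1000 ppm whichever gene they belong to. Muscle of bull 3 lies at or near 0 for all genes shown but POMC.

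Over all genes, 4720 were higher and 3871 lower in pituitary than in liver (35.9% and 29.4% of those tested). Against fat 4504 genes were higher and 4126 lower (34.3% and 31.4%), and against muscle 4433 and 4121 (33.7% and 31.3%). The pituitary was above all 3 tissues for 1020 genes and below all 3 for 264 (7.76% and 2.01%). In 950 genes every pituitary sample lay above every other sample (7.23%), and in 238 genes below (1.81%). Without the liver of bull 3 the counts were 1011 above and 271 below, and without the fat of bull 5 they were 1030.0 and 261. Of the gene lists described next, the number above all 3 tissues changed without either library for the channels alone. The number below changed for the activin, fatty acid oxidation and glycolysis genes without the fat of bull 5. These lists were chosen with earlier results of these data known, so the shares of all genes given beside them are descriptive.

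The transcription factors that specify the anterior lineages followed the hormones. Of 22 such factors listed, 19 were tested and 14 were above all 3 tissues, with none below, beside 7.76% and 2.01% of all genes. With genes of 3 reads or fewer in a tissue set at the level of 3 reads per library, the median log2 difference was 6.40 against liver, 6.29 against fat and 5.28 against muscle, beside 0.10 and 0.05 against liver and fat over all genes. POU1F1, which drives the cells of growth hormone, prolactin and thyrotropin, ranged from 26.7 to 101 TMM CPM in pituitary (median 66.2) and was at most 0.716 elsewhere. TBX19, the factor of the POMC cells, ranged from 47.7 to 226 (median 88.9), against at most 4.24. Neither gene overlapped between pituitary and the rest.

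NR5A1, which specifies gonadotrophs, ranged from 37.8 to 101 TMM CPM (median 59.2), with at most 0.406 in any other sample. The early gland factor LHX3 ranged from 113 to 228 (median 137), against at most 0.650. SIX6 ranged from 113 to 244 and SIX3 from 62.6 to 283, each with at most 0.552 elsewhere. INSM1, a zinc finger factor of endocrine cells, ranged from 78.2 to 185. Their log2 differences against fat were 9.38 ± 0.49, 9.37 ± 0.37, 10.53 ± 0.49, 11.18 ± 0.70 and 11.00 ± 0.68 (SE, in that order, edgeR adjusted p of 4.2e-20 or less). In fat, SIX3 and INSM1 reached at most 0.164 and 0.130 TMM CPM, under the mean 3-read level there (0.220). Their differences from fat thus rest on few reads. For SOX2, a factor of progenitor cells, liver had 0 reads, and pituitary was at least 84.2-fold higher than 3 reads per library there.

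PITX1, GATA2, HESX1 and EGR1 were tested and were not above all 3 tissues. PITX1, a factor of the early gland and of the hind limb, ranged from 61.2 to 186 TMM CPM in pituitary and from 57.1 to 327 in muscle, and its log2 difference from muscle was -0.27 ± 0.24 (edgeR adjusted p = 0.33). Against liver it was higher in pituitary, by 9.20 ± 0.43 on the log2 scale. GATA2, active in thyrotrophs and gonadotrophs, had means of 20.5 in pituitary, 20.1 in fat and 16.5 in muscle, with edgeR adjusted p of 0.55 and 0.17. EGR1, an immediate early factor, ranged from 277 to 1670.2 in pituitary and overlapped with fat (84.6 to 978) and muscle (24.6 to 1611).

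Receptors for the hypothalamic factors came next. Of 14 listed, 11 were tested and 7 were above all 3 tissues, beside 7.76% of all genes. The median log2 difference of the 11 (at the floor where needed) was 5.87 against liver, 6.08 against fat and 4.26 against muscle. DRD2, the dopamine receptor through which prolactin release is held back, ranged from 283 to 706 TMM CPM in pituitary (median 468), against at most 11.0 elsewhere. GHRHR, the receptor for growth hormone-releasing hormone, ranged from 46.1 to 175 (median 135), against at most 0.537. GNRHR, the receptor for gonadotropin-releasing hormone, ranged from 24.4 to 144 (median 51.1), against at most 0.174. None of the 3 overlapped with any other tissue, and the log2 difference of DRD2 was 10.75 ± 0.56 against liver and 7.93 ± 0.36 against fat.

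Other receptors stood lower. The ghrelin receptor GHSR ranged from 9.70 to 38.8 TMM CPM and the thyrotropin-releasing hormone receptor TRHR from 5.82 to 39.3, each with at most 0.793 elsewhere. The vasopressin receptor AVPR1B ranged from 0.717 to 6.06 and the somatostatin receptor SSTR2 from 2.02 to 7.83. CRHR1, which binds corticotropin-releasing hormone, ranged from 6.45 to 15.2 in pituitary but from 0.420 to 41.5 in muscle, where the log2 difference was 1.28 ± 0.38 (edgeR adjusted p = 0.0088). That call was lost without the animal block. The receptor for PACAP, ADCYAP1R1, was higher than in each tissue, but by less than 4-fold against muscle (1.81 ± 0.49), and OXTR had 1 read over the 10 pituitary samples.

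Receptors by which target hormones act back on the gland did not share this pattern. Of 13 listed, 11 were tested, 1 was above all 3 tissues (ESR2) and 1 below (GHR). The share above, 9.1%, was near that of all genes (7.76%). ESR2, an estrogen receptor, ranged from 0.605 to 2.12 TMM CPM in pituitary and reached at most 0.296 elsewhere. Its relative ESR1 ranged from 12.9 to 58.9 in pituitary, with means of 32.9 in liver and 50.0 in muscle that did not pass the test (edgeR adjusted p = 0.71 and 0.085). GHR, the growth hormone receptor, ranged from 8.24 to 15.8 in pituitary, where means were 372 in liver, 126 in fat and 194 in muscle. The glucocorticoid receptor NR3C1 was lower than in every other tissue, with log2 differences of -0.95, -0.90 and -1.58 (edgeR adjusted p of 6.2e-05 or less). PRLR, the prolactin receptor, was higher than in fat and muscle (6.97 ± 0.47 and 7.60 ± 0.68) and lower than in liver (-1.17 ± 0.29).

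**Figure D3:**
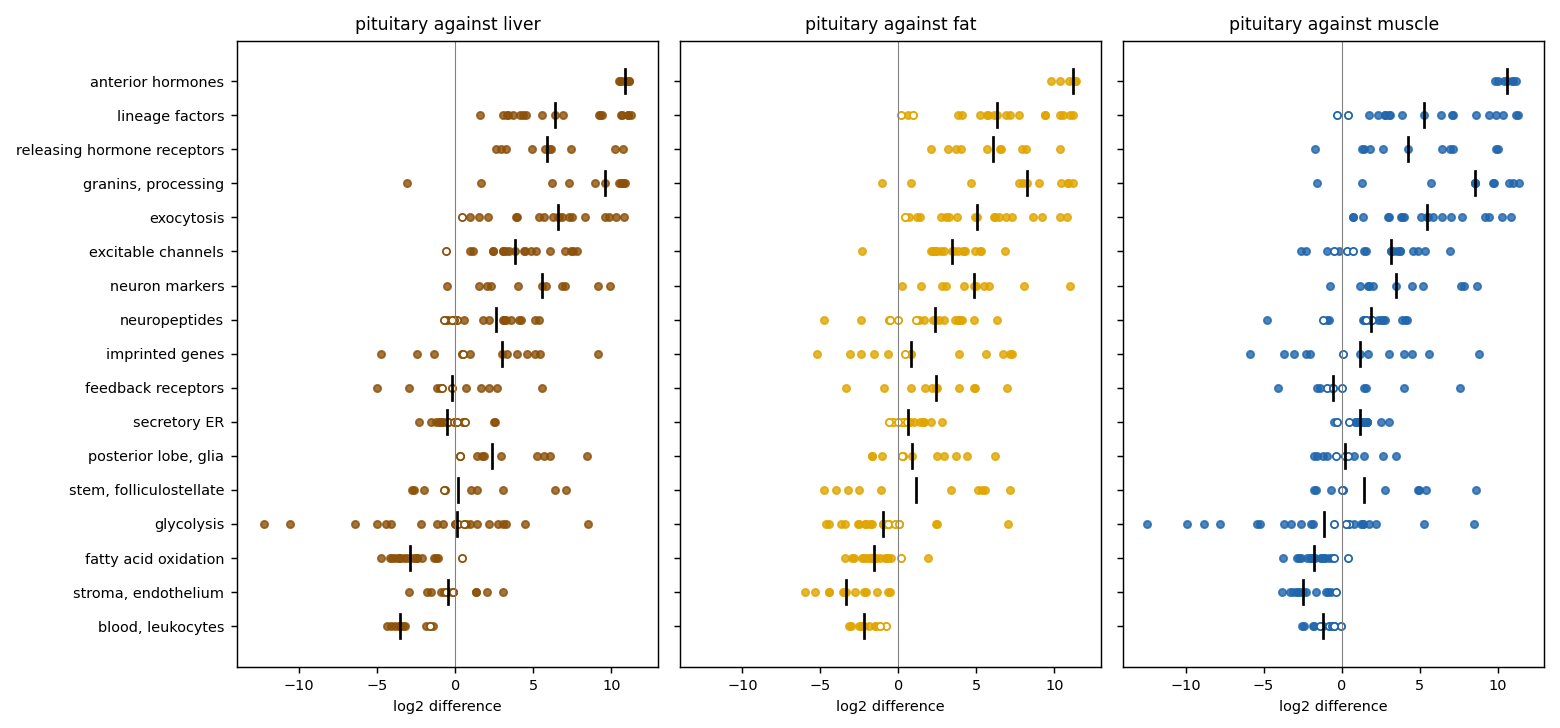
Each point is a gene of 1 of 17 lists (rows), placed by its log2 difference between pituitary and liver, fat or muscle. Filled points had an adjusted p under 0.05, black bars are medians, and genes with 3 reads or fewer in a tissue are set at the 3-read floor or left out where both tissues are under it, so that a gene near the floor in pituitary too, such as GAD2, can lie left of its fitted value. Hormones, lineage factors, releasing hormone receptors, granins and exocytosis genes lie mostly to the right of 0 in all 3 panels, and fatty acid oxidation and blood genes to the left.

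Genes of the secretory granule were among those with the clearest separation. Granins are acidic proteins stored with hormones, and the convertases and carboxypeptidases trim precursors into active peptides. Of 13 listed, 11 were tested and 9 were above all 3 tissues, beside 7.76% of all genes. The median log2 difference of the 11 was 9.59 against liver, 8.27 against fat and 8.57 against muscle. SCG2 ranged from 4235 to 10739 TMM CPM in pituitary (median 7551), CHGB from 1594 to 3092 and CHGA from 1436 to 2079.9, and no other sample exceeded 24.7. The convertase PCSK1 ranged from 69.8 to 184 (at most 1.05 elsewhere), whereas PCSK2 spread from 11.8 to 414. The carboxypeptidase CPE ranged from 583 to 899.6, with means of 29.2 in fat and 14.3 in muscle. The amidating enzyme PAM was higher in pituitary by a smaller margin (1.65, 0.78 and 1.31 on the log2 scale), and FURIN, a convertase of many cell types, was lower than in every tissue (-3.07 ± 0.27 against liver).

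The machinery of regulated exocytosis showed the same direction. Of 23 genes listed, 19 were tested and 15 were above all 3 tissues, beside 7.76% of all genes. All 15 were without overlap, beside 7.23% of all genes. The median log2 difference was 6.56 against liver, 5.04 against fat and 5.45 against muscle, with genes at the floor where needed. The membrane fusion protein SNAP25 ranged from 199.7 to 293 TMM CPM in pituitary and was at most 0.831 elsewhere. PTPRN, a membrane protein of dense-core granules, ranged from 412 to 1196, against at most 1.83. CADPS, which primes such granules, ranged from 86.8 to 238, against at most 0.618. The 4 that were not above all 3 tissues were VAMP2, UNC13B, RAB3B and RAB3D. RAB3B ranged from 23.7 to 108 in pituitary and had a mean of 52.0 in fat (edgeR adjusted p = 0.40).

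Genes of protein folding and export in the endoplasmic reticulum lacked such a separation. None of 16 tested was above or below all 3 tissues by edgeR's quasi-likelihood test with the 4-fold limit, and DESeq2 and the fits without the liver of bull 3, the fat of bull 5 or the pituitary of bull 5 also gave 0. Over all genes 7.76% were above and 2.01% below all 3 tissues, so 0 of 16 says little. At an adjusted p under 0.05 and any size, 2 were higher and 9 lower than in liver, beside 35.9% and 29.4% of all genes. Against fat 10 were higher and 0 lower (34.3% and 31.4% of all genes), and against muscle 13 higher and 1 lower (33.7% and 31.3%). The chaperone HSP90B1 had means of 1239 TMM CPM in pituitary, 4009 in liver, 624 in fat and 581 in muscle. CREB3L1, a membrane-bound factor of secretory cells, was the gene of this list higher than in all 3 (2.49, 1.41 and 1.38 on the log2 scale, edgeR adjusted p of 1.0e-05 or less).

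Electrical excitability genes were mostly higher in pituitary. Of 24 channel subunits listed, 19 were tested and 11 were above all 3 tissues (10 without the fat of bull 5), beside 7.76% of all genes. The median log2 difference of the 19 (at the floor where needed) was 3.83 against liver, 3.46 against fat and 3.14 against muscle. The potassium channel KCNH2 ranged from 56.2 to 88.7 TMM CPM in pituitary and was at most 12.3 elsewhere. The sodium channels SCN9A (19.8 to 96.6) and SCN8A (18.8 to 86.8) and the calcium channel CACNA1D (22.2 to 59.4) did not overlap with another tissue either. Muscle, the other excitable tissue, was above pituitary for CACNA2D1, a calcium channel subunit (-2.60 ± 0.29).

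Neuronal genes were high in the gland as well. Of 14 neuron markers listed, 11 were tested, and all 11 were higher than in each tissue at an adjusted p under 0.05, where 16.3% of all genes were. By at least 4-fold, 8 were above all 3 tissues, beside 7.76% of all genes. NEFL, a neurofilament chain, ranged from 68.2 to 121 TMM CPM and was at most 0.358 elsewhere. UCHL1, a neuronal and endocrine hydrolase, ranged from 178 to 446, against at most 64.9. The summed level of the 11 markers was 736 to 957 in pituitary and at most 279 in any other sample. Endocrine cells share many of these genes with neurons, and in bulk samples more cells of a type and more RNA per cell cannot be told apart.

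Neuropeptide genes varied in level. Of 23 listed, 21 were tested and 9 were above all 3 tissues, beside 7.76% of all genes. Of the 9, TAC1 and CARTPT had no overlap, and these 2 of 21 were near the share of all genes (7.23%). NUCB2, the precursor of nesfatin, ranged from 86.1 to 253 TMM CPM, was higher than in fat and muscle (1.64 ± 0.31 and 2.34 ± 0.31) and did not pass against liver (edgeR adjusted p = 0.63). NPPC, which encodes C-type natriuretic peptide, ranged from 9.21 to 129 TMM CPM (median 43.3), against at most 10.8 elsewhere. TAC1, the precursor of substance P, ranged from 0.725 to 30.3 and the galanin gene GAL from 0.916 to 16.1, both with their highest value in cow 4. The hormones of the posterior lobe are made in the hypothalamus, and AVP (vasopressin) and OXT (oxytocin) stayed at 0.0631 to 1.23 and 0 to 0.958 in pituitary. AVP had 0 reads in liver and fat and did not pass against muscle (edgeR adjusted p = 0.059), and neither did OXT (edgeR adjusted p = 0.24). Over both sexes GRP was lower than in fat (-4.75 ± 0.64), where its mean was 53.3. That mean rests largely on fat of cow 2 (169.6 TMM CPM) and bull 5 (177.5), with at most 57.8 in the other fat samples. In pituitary GRP split by sex without overlap, at 0.883 to 12.7 in cows and 0 to 0.151 in bulls. In cow 4 and cow 5 the pituitary (12.7 and 4.58) lay above the fat (2.84 and 1.495). The paper also lists GRP among the genes that differ between the sexes in pituitary.

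Markers of cells other than the hormone cells were measured next. Of 14 markers of posterior lobe cells and glia, 11 were tested. Beside 7.76% of all genes, 3 of them were above all 3 tissues, namely GFAP, NKX2-1 and OLIG1. GFAP, a filament of glia and pituicytes, ranged from 3.26 to 55.2 TMM CPM, and its lowest samples overlapped with muscle (at most 4.14). NKX2-1, a factor of the developing posterior lobe, had 0 reads in the 30 other samples and ranged from 1.0 to 11.9 in pituitary. The summed level of the 11 genes was 92.8 to 252 in pituitary, 104 to 345 in fat, 116 to 206 in muscle and 20.5 to 36.3 in liver. Beside 7.76% of all genes, 2 of 11 tested markers of stem and folliculostellate cells were above all 3 tissues. They were SOX2 and PROM1, a surface protein of progenitor cells (7.04 to 23.0, against at most 6.14), while S100B, a calcium-binding protein of folliculostellate cells, had means of 60.8 in pituitary and 602 in fat.

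Markers of the other tissues were summed as a check of the dissection. The summed level of 14 hepatocyte genes was 82.7 to 293 TMM CPM in pituitary, against 194635 to 493345 in liver. The 13 myofibre genes summed to 23.5 to 196 in pituitary, against 158289 to 265444 in muscle, and the 10 adipocyte genes to 234 to 404, against 22881 to 45799 in fat. The 13 blood and leukocyte genes summed to 49.9 to 155 in pituitary. CD3E of T cells (0.0780 to 2.78 in pituitary) and CD79A of B cells (0 to 0.362) were below all 3 tissues, beside 2.01% of all genes. Both overlapped with samples of other tissues. CD79A was near the 3-read level in pituitary (0.197), and in muscle it ranged from 0 to 5.38, with the highest value in bull 1. The 13 stroma and endothelium genes summed to 717 to 1938, against 10756 to 48027 in fat, and the endothelial cadherin CDH5 was below all 3 tissues (9.85 to 19.9 in pituitary, means of 111, 156 and 144 in liver, fat and muscle). No hepatocyte or myofibre gene was above or below all 3 tissues, and of the 10 adipocyte genes LPL, CIDEC and PCK1 were below, beside 2.01% of all genes. The part of these cells in the results was not tested.

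Activin and bone morphogenetic protein genes, which control follicle-stimulating hormone within the gland, were measured too. Of 13 tested (16 listed), 0 were above and 0 below all 3 tissues by edgeR's quasi-likelihood test at the 4-fold limit. Over all genes 7.76% were above and 2.01% below, so 0 of 13 says little. DESeq2 called 1 above. Scaling without the 7 hormone genes and the fits without the pituitary or the fat of bull 5 each called 1 below. INHBB, the chain of activin B, ranged from 2.68 to 10.4 TMM CPM and was higher than in each tissue (6.60, 1.95 and 2.88 on the log2 scale). BMP4 ranged from 0.858 to 5.94 and lay under every other sample (at least 6.29). FST, the activin-binding follistatin, ranged from 0.883 to 15.9, with edgeR adjusted p of 0.36 against liver and 0.081 against muscle.

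The genes with the most reads in pituitary, with no scaling by length, were PRL, GH1, POMC, NNAT, SCG2, CGA, GNAS, GPX3, MARK4 and CHGB. NNAT, an imprinted gene of neural and endocrine cells, ranged from 5232 to 12809 TMM CPM (median 8027), against at most 174 elsewhere. GNAS, which encodes the G protein subunit that couples releasing hormone receptors to cyclic AMP, ranged from 2936 to 5815, against at most 2084. MARK4, a microtubule-regulating kinase, ranged from 864 to 9113, with the highest value in cow 3, and was at most 28.6 elsewhere. GPX3, the secreted glutathione peroxidase, ranged from 1336 to 6856 and overlapped with fat (at most 2143).

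Imprinted genes of growth control were on both sides. Of 15 listed, 13 were tested, 5 were above all 3 tissues (NNAT, PEG10, MEG3, MEST and DLK1) and 1 was below (IGF2). Over all genes 7.76% were above and 2.01% below. PEG10, derived from a retrotransposon, ranged from 755 to 1469.5 TMM CPM and was at most 55.7 elsewhere. MEG3, a noncoding RNA, ranged from 271 to 1129, against at most 188. MEST ranged from 96.2 to 328, against at most 13.8, while DLK1 (22.3 to 104) overlapped with muscle (at most 31.6). IGF2, the growth factor, ranged from 80.3 to 323 in pituitary, with means of 4170.4 in liver, 839.9 in fat and 786 in muscle, and the noncoding H19 was lower than in fat and muscle (-3.11 ± 0.34 and -5.85 ± 0.34) and did not pass against liver (edgeR adjusted p = 0.32).

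The 20 genes with the largest smallest log2 difference over the 3 tissues (mean of at least 10 TMM CPM and no overlap) held 13 genes of the lists, and their smallest differences reached 11.15. The 7 outside the lists were OGDHL, CELF3, SYT13, NRSN1, DMRTA2, FAM183A and LOC508098. OGDHL, a relative of a citric acid cycle enzyme, ranged from 94.2 to 226 TMM CPM and was at most 0.174 elsewhere. NRSN1, a neuronal vesicle protein, ranged from 100.3 to 257, CELF3, an RNA-binding protein, from 70.4 to 214, and SYT13, a synaptotagmin, from 66.4 to 115. FAM183A, listed as CFAP144 in RefSeq, had 0 reads in all 30 other samples and 7.37 to 16.0 in pituitary, so it was at least 25.9-fold higher than 3 reads per library in muscle and at least 52.1-fold in fat.

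Genes of fuel use lay on the other side. Of 18 tested genes of fatty acid oxidation, 17 were lower in pituitary than in liver, 16 than in fat and 16 than in muscle, beside 29.4%, 31.4% and 31.3% of all genes. The median log2 difference was -2.92, -1.57 and -1.79. All 3 differences passed for 14 of the 18, where 10.5% of all genes did so. In 7 of the 18 every pituitary sample lay below every other sample, beside 1.81% of all genes. HADH, an enzyme of the spiral, ranged from 24.3 to 43.5 TMM CPM in pituitary and was at least 88.3 in every other sample. ETFA, which passes electrons from the first step, ranged from 26.6 to 49.6, against at least 105. ETFA was the member called below all 3 tissues, at -2.01 ± 0.17 against muscle. This value sat at the 4-fold limit. For ETFA against muscle the limit was missed by DESeq2 (-1.92), with RLE factors (-1.92), with filterByExpr (-1.89), without the pituitary of bull 5 alone (-1.95), without its fat alone (-1.96) and without all tissues of bull 5 (-1.86). Leaving out bull 2, bull 3 or bull 4 also took the value under the limit (-1.96, -1.95 and -1.996).

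Of 23 tested genes of glycolysis and gluconeogenesis, 19 were neither above nor below all 3 tissues, and 2 were above, a share near that of all genes (7.76%). ENO2, the neuronal enolase, ranged from 43.8 to 135 TMM CPM in pituitary and was at most 1.56 elsewhere, and ALDOC, the brain aldolase, ranged from 66.0 to 148, against at most 53.1. These were the genes above. LDHA, the lactate dehydrogenase subunit of muscle, ranged from 0.947 to 3.69 in pituitary and was at least 9.80 in every other sample. The muscle fructose bisphosphatase FBP2 was also below all 3 tissues (1 gene below without the fat of bull 5). FBP2 ranged from 0 to 0.403 in pituitary and overlapped with fat (0.0915 to 0.669), where the 3-read level was 0.220. The row of GAPDH held almost no reads in any tissue (at most 0.130 TMM CPM in pituitary), so it could not serve as a control. The other controls, ACTB, RPS9 and RPLP0, were neither above nor below all 3 tissues.

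The 10 genes furthest below all 3 tissues (mean of at least 10 TMM CPM in each of them and no overlap) were AGXT2L1, ANGPTL4, CD36, ACSM1, MASP1, RSPO3, FXYD1, IDO1, ADA and MGLL. CD36, a fatty acid transporter, ranged from 1.48 to 22.8 TMM CPM in pituitary and was at least 172 in every other sample, with log2 differences of -6.57 ± 0.30, -7.96 ± 0.30 and -5.82 ± 0.30 from liver, fat and muscle. ANGPTL4, an inhibitor of lipoprotein lipase, ranged from 0.101 to 1.64, against at least 2.94. MGLL, which frees fatty acids from monoglycerides, ranged from 3.90 to 13.3, against at least 80.0. The lipase LPL itself ranged from 1.17 to 4.63 and was at least 9.15 elsewhere. ADA, which degrades adenosine, ranged from 0.624 to 2.39, against at least 12.6. AGXT2L1 (0 to 0.631) and ACSM1 (0.145 to 1.37) stayed low throughout the gland samples.

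**Figure D4:**
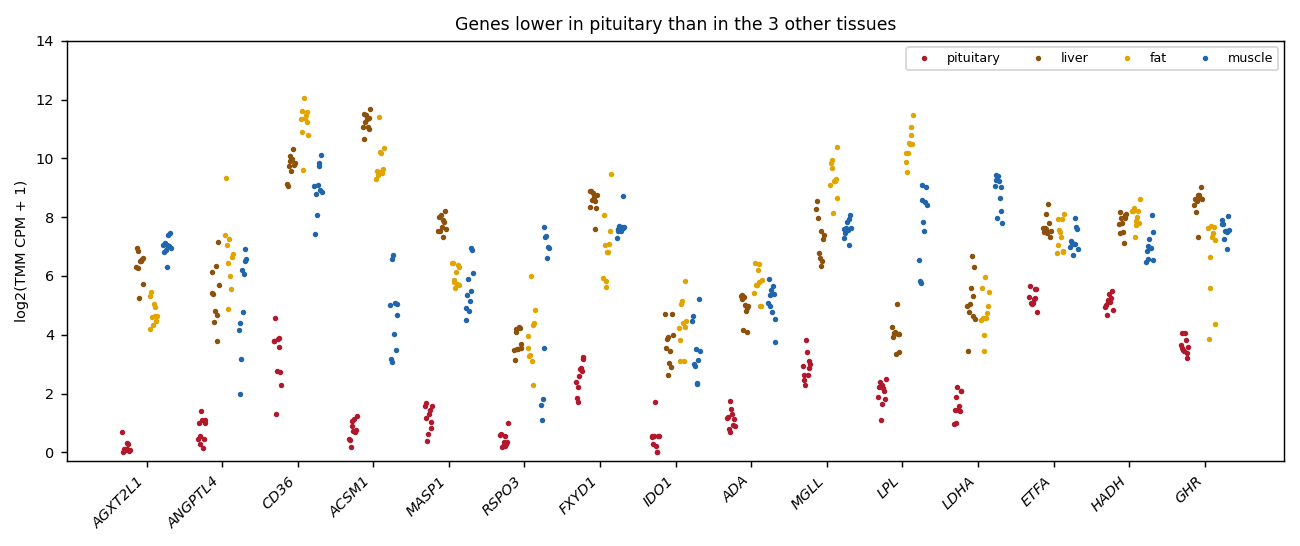
Each point is 1 of the 40 samples, with log2(TMM CPM + 1) on the vertical axis and the tissue as the colour, for the 10 genes furthest below all 3 tissues and for LPL, LDHA, ETFA, HADH and GHR. The pituitary points lie under those of all other tissues for each gene but GHR, which ranges from 8.24 to 15.8 TMM CPM in pituitary and overlaps with the lowest fat sample (13.6, cow 2).

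The pituitary samples also differed among themselves. Among 7647 genes with a mean of at least 10 TMM CPM, the median SD of log2(TMM CPM + 1) over the 10 samples was 0.32. The SD was 1.73 for FSHB, the 1 hormone gene among the 10 genes with the largest SD. The other 9 were XIST, USP9Y and ZFY, which follow sex, and IGLL1, COL11A2, JSP.1, CNN1, FREM1 and ADAMTS4. FSHB went partly with sex too, at 56.9 to 1108 TMM CPM in cows and 1273.5 to 1763 in all bulls but bull 5 (232). IGLL1, an immunoglobulin light chain gene, ranged from 0.153 to 107 with its highest value in cow 2, and JSP.1, a class I histocompatibility gene, from 2.47 to 325. Both belong to families of near-identical genes, so their counts are uncertain. CNN1, the smooth muscle calponin, ranged from 0.546 to 55.8.

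Bull 5 and cow 3 stood furthest from the rest, with mean correlations to the other pituitaries of 0.965 and 0.964. Cow 3 was the highest sample for 24.1% and the lowest for 23.2% of the 7647 genes, bull 5 for 12.9% and 20.8%, and bull 4 for 18.4% and 14.1%. In bull 5, POMC reached 58536 TMM CPM, above 30940.5 in the next sample. PCSK2, which cuts pro-opiomelanocortin into shorter peptides, reached 414 there, above 127. TBX19 reached 226, above 106. OTX2 (16.4, above 4.04, and not called against the tissues by DESeq2) and NKX2-1 (11.9, above 2.67) were highest in the same gland, as were RYR1 (101, above 15.1), SERPINA1 (118, above 44.0) and COL1A1 (389, above 153). PRL (67047) and CGA (1465) were the second lowest of the 10 there. Without this gland POMC still differed from liver, fat and muscle by 10.43, 9.65 and 9.73 on the log2 scale, and 1008 genes were above all 3 tissues, of which 994 were among the 1020. The share of each lobe in the dissected samples is not given, and its part in these values was not tested.

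**Figure D5:**
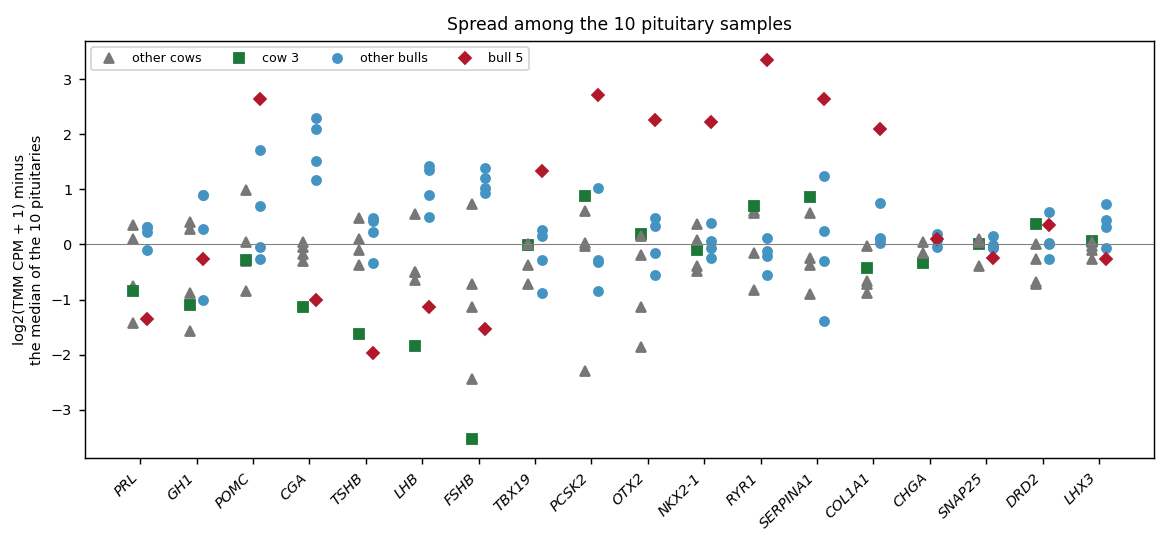
Each point is 1 of the 10 pituitary samples, with log2(TMM CPM + 1) minus the median of the 10 on the vertical axis for 18 genes. Bull 5 lies above the other samples for POMC, TBX19, PCSK2, OTX2, NKX2-1, RYR1, SERPINA1 and COL1A1, whereas the points of CHGA, SNAP25, DRD2 and LHX3 all lie within 1 log2 unit of the median.

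For 9 pairs of genes of 1 lineage, correlations of log2(TMM CPM + 1) over the 10 pituitary samples were computed with 100000 two-sided permutations. The largest was that of CGA and LHB (r = 0.86, permutation p = 0.0018, adjusted p = 0.016 over 9 pairs, rho = 0.78 with adjusted p = 0.066), and r was 0.89 without the 2 samples furthest from the median of CGA. The gene pair POMC and TBX19 gave r = 0.80 (permutation p = 0.0062, adjusted p = 0.018, rho = 0.70 with adjusted p = 0.069), and r fell to 0.37 without bull 4 and bull 5. POMC and PCSK2 gave r = 0.78 (permutation p = 0.0061, adjusted p = 0.018, rho = 0.59 with adjusted p = 0.13), and 0.43 without bull 4 and bull 5. Both POMC relations thus rest on these samples. GH1 with PRL (r = 0.77, permutation p = 0.012, adjusted p = 0.027), LHB with FSHB (r = 0.73, permutation p = 0.020, adjusted p = 0.034) and CGA with TSHB (r = 0.70, permutation p = 0.023, adjusted p = 0.034) also passed for r and not for rho. Without the 2 samples furthest from the median of the first gene of each pair, r was 0.60, 0.52 and 0.69, in that order. The 3 other pairs, GH1 with GHRHR, PRL with TRHR and LHB with GNRHR, did not pass (adjusted p of 0.16 or more). PRL takes so many reads that the levels of other genes are not independent of it. With the mean of each sex subtracted and exact permutation within sex, an alternative chosen after seeing the data, r was 0.78 for CGA with LHB, 0.89 for CGA with TSHB, 0.79 for both POMC pairs and 0.75 for GH1 with PRL (adjusted p = 0.048 for each over 9 pairs). LHB with FSHB gave r = 0.58 and no longer passed (exact permutation within sex, adjusted p = 0.14).

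Whether the contrast of pituitary with the other tissues differs between bulls and cows was tested with edgeR's quasi-likelihood F test of the interaction. It passed for 0 of 13148 genes (0.0%), with 919 at an unadjusted p under 0.05, edgeR's likelihood ratio test called 12, and the quasi-likelihood test called 2 without the fat of bull 5. The smallest adjusted p belonged to ALOX12, a lipoxygenase, whose pituitary levels were 3.99 to 8.97 TMM CPM in cows and 7.49 to 26.1 in bulls, with an interaction of 2.29 on the log2 scale (edgeR adjusted p = 0.061). PTGR1, which breaks down prostaglandins, had 2.87 to 7.70 in cows and 11.5 to 19.6 in bulls, without overlap within the gland (1.91, edgeR adjusted p = 0.092). The next were SEMA3B, VIPR1 and ADM, with edgeR adjusted p of 0.12, 0.17 and 0.25. CGA ranged from 1339 to 3053 in cows and from 1465 to 14537 in bulls, and 4 of 5 bulls lay above every cow, while the interaction was 0.63 (edgeR adjusted p = 0.90). CGA stood at 0 to 1401 ppm of its own pituitary in the other tissues (median 288 ppm, without TMM scaling). The interaction compares ratios of pituitary to the other tissues, so where low counts elsewhere follow the gland of the same animal it cannot show a difference between the glands themselves.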

How the data were processed

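RNA of 4 tissues of 10 Korean cattle was sequenced, 1 library per animal and tissue. According to the labels and the study's methods, the authors used Trimmomatic for trimming, Bowtie2 and TopHat2 for alignment to bosTau7, and HTSeq for counting the uniquely aligned reads of each gene. The authors deposited raw read counts per gene, neither normalized nor pooled. Strand and counting mode are not given in the sources used here, so overlapping and antisense genes cannot be told apart. A row without a gene name (0.0820 to 0.0975% of uniquely aligned reads in pituitary) was left out.

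The 13148 of 13570 genes that had any read were tested with edgeR 4.0.16 (R 4.3.3), TMM factors and the quasi-likelihood F test with animal and tissue as terms. Tissues of 1 animal were paired by ear tag. The deviations of a pituitary from its group mean correlated with those of the same animal's liver, fat and muscle at medians of 0.21, 0.03 and 0.22. P-values were adjusted by Benjamini-Hochberg at 0.05. The 3-read level, on average 0.197 TMM CPM in pituitary and 0.220 to 0.443 elsewhere, served as a floor. Hormone shares have exact 95% intervals. The main fit and the fit of the interaction with sex were run on simulated counts, while the alternatives given next were not. Those counts had a single dispersion and no tissue or animal differences beyond the planted changes, unlike these data. Likelihood ratio test, DESeq2 1.42.0, RLE factors, scaling without the 7 hormone genes, filterByExpr, no block, single libraries left out and a 2-fold limit were alternatives, and the fit without the pituitary of bull 5 and correlations within sex were chosen after seeing the data.

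Members and the 22 gene lists (342 genes, 300 in the tables, 299 tested) were chosen with earlier results of these data known. Named genes were those of the lists, the 20 furthest above and 10 furthest below all 3 tissues, the 10 with most reads, the 10 with the largest SD in pituitary and the 5 with the smallest p for the interaction with sex. Symbols were looked up in RefSeq (ARS-UCD2.0) for names alone. Some genes of the lists count in the totals and are not reported here by name.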

Additional observations from a re-analysis of the deposited data

Results flagged for a closer look

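In 135 genes with a mean of at least 1 TMM CPM in pituitary, the extreme sample of the 10 was compared with its neighbour by Dixon's 95% limit. In 28 of them 1 sample stood far from the others, each time as the highest. For normally distributed values chance does so in about 1 of 20 groups. That rate does not apply here, as the values were not on a log scale and some genes had been named for their large SD. Values are TMM CPM, followed by the next sample. Bull 5 was highest for POMC (58540.0, next 30940.0), TBX19 (226.5, next 106.1), OTX2 (16.37, next 4.042), SSTR2 (7.827, next 4.451), ADCYAP1R1 (34.5, next 18.17), PCSK2 (414, next 127.2), NKX2-1 (11.94, next 2.667), SERPINA1 (118.3, next 43.98), RYR1 (100.8, next 15.15), COL1A1 (388.9, next 152.9), COL3A1 (353.1, next 190.7), VIPR1 (4.37, next 2.248) and ADM (32.03, next 16.95). Cow 1 was highest for HESX1 (8.773, next 6.378), MBP (38.06, next 22.15) and SLC1A3 (60.52, next 34.11). Bull 4 was highest for INSM1 (185.3, next 133.2), KRT8 (232.1, next 124.1) and DLK1 (103.7, next 60.01). Cow 3 was highest for SIX3 (283.2, next 165.7), GHSR (38.77, next 24.9) and MARK4 (9113, next 3806). Cow 4 was highest for TAC1 (30.33, next 14.7), GAL (16.14, next 7.383) and MEST (328.3, next 196.1). Bull 1 was highest for CNN1 (55.77, next 26.58). Bull 2 was highest for ISL1 (17.7, next 10.02). Cow 2 was highest for IGLL1 (107.4, next 16.16).

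A row without a gene name, outside the comparisons, held a median of 16336.5 reads in the pituitary samples (13178 to 24247), which is 0.0820 to 0.0975% of their uniquely aligned reads. Its reads could not be given to a gene.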

How the results depend on the processing

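Over 19 alternatives, 416 differences of 142 genes from a tissue were refitted, of which 388 had passed. No difference that had passed changed sign. The ones that changed sign had not passed, namely OXTR against liver, from -1.63 to 0.76 over the fits without 1 animal, and GATA2 against fat, from -0.031 to 0.35 over those fits. In 8 genes (ACADM, CRHR1, HESX1, MBP, OTX2, OXT, RYR1 and S100B) 21 refitted values lost their call, and in 13 genes 33 refitted values gained one. RYR1 against liver had an edgeR adjusted p of 0.029 and of 0.20 without the pituitary of bull 5. The causes were not tested.

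Without the block for the animal (no pairing), 987 genes were above and 277 below all 3 tissues, of which 965 and 259 were among the 1020 and 264, and 8444, 8476 and 8388 differed from liver, fat and muscle. Leaving out 1 animal at a time gave 8263 to 8517 genes against liver, 8183 to 8716 against fat, 8202 to 8564 against muscle, 8359 to 8719 against their mean, 990 to 1032 above and 251 to 274 below. With a 2-fold limit 1606 genes were above and 761 below, as more genes can pass. With filterByExpr, which tests fewer genes, 771 and 229 were, and it moved the median of all genes against muscle by 0.125. For bulls against cows the likelihood ratio test called 12 genes and leaving out single libraries called 0 (liver of bull 3) to 2 (fat of bull 5). The hormone share was 16.5% of all uniquely aligned reads instead of 27.8%. Genes near the 3-read level are limited by depth, and p-values cover the spread between these animals.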
